A study of Mus musculus with 8 samples.

Results

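The genes described here come from part of the glycosyltransferase families of the Golgi apparatus. They comprised 89 of the 22180 mouse genes with a probe set of their own on the arrays. They were chosen by symbol, from the families Galnt, Gcnt, Mgat, B3gnt, B3gal, B4gal, St3gal, St6gal, St8sia and Fut together with A4galt. The families were taken up because A4galt and Galnt3 had stood lower with stem cell factor (SCF) on these same arrays. The contrast of SCF with medium is therefore given for all of them as a description. A gene with several probe sets was read from the brightest over all 8 arrays.

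Glycosyltransferases pass a sugar from an activated nucleotide sugar to a growing glycan on a protein or lipid, and the bond made depends on the enzyme. Galnt enzymes start mucin-type O-glycans, Mgat and Gcnt enzymes branch N-glycans and O-glycans, B3gnt and B4galt enzymes lengthen the branches, and sialyltransferases and fucosyltransferases cap them. On leukocytes siglecs bind sialic acid caps, selectins bind fucosylated and sialylated ends and galectins bind galactose-containing chains, and glycolipids made by the same machinery sit in the outer leaflet of the cell membrane. The label of the group rests on these textbook roles, since the arrays measured RNA and not the place of a protein in the cell. The symbol rule also took in Fut4-ps1, a pseudogene by its name.

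RNA came from CD11c-positive dendritic cells grown from the bone marrow of female wild-type C57BL/6 mice. All cells spent 7 days with GM-CSF (20 ng/ml) at 21% oxygen, were purified on CD11c beads to over 98%, and were then held for 2 days at 2% oxygen with GM-CSF. The SCF group (4 arrays) then received SCF at 100 ng/ml for 6 hours, and the medium group (4 arrays) was left without it for the same time. The 4 experiments, named BC, D2, E and I, are called biological replicates in the design, and the sample titles put the word Mouse before each name without saying whether it stands for 1 animal. Each gave 1 SCF and 1 medium culture of the same purified cells, so the arrays are paired, and all 8 cultures were hypoxic.

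The promoter sequences of A4galt and Galnt3 are shown because these genes prompted the choice of the families and had the lowest SCF minus medium differences within them. Both are RefSeq windows on GRCm38.p6 that run from 250 bases before to 50 bases after the start of the gene, on the minus strand of the chromosome and written 5′ to 3′ along the gene. Capitals mark the GC box GGGCGG on either strand, the binding motif of Sp-family factors.
A4galt, chr15:83251680-83251979: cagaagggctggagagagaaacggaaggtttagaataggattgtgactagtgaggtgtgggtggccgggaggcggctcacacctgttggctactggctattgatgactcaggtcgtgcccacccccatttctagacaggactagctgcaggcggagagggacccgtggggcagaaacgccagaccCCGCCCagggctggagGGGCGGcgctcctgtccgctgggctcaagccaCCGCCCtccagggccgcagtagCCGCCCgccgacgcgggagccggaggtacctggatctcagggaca
Galnt3, chr2:66124744-66125043: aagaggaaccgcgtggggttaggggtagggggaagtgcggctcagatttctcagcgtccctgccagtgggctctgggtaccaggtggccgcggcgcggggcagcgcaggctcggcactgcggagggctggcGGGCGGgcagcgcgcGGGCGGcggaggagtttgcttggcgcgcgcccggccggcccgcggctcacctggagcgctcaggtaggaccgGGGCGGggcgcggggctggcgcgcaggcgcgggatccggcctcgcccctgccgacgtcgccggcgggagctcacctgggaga

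The A4galt window held 4 GC boxes and the Galnt3 window 3, with 19 and 41 CpG dinucleotides. Neither held ACGTG, a form of the core of the hypoxia response element, nor CCAAT or TATAAA, each searched on both strands. The other form of that core, GCGTG, was not searched for or counted. It can be read near the 5′ end of the Galnt3 window. ACGTG also lies inside the E-box CACGTG. RefSeq windows were at hand for 65 of the 89 genes. Members bright enough to be tested had a GC box in 63.2% of their 57 windows, which came from 41 genes. It stood in 41.2% of the 34 windows of the dim members and 35.7% of all 32851 windows. The last were windows of bright and dim genes alike. Bright genes outside the group were not counted apart, so these shares cannot be credited to the group. ACGTG stood in 19.3% of the bright, 20.6% of the dim and 19.6% of all windows, and TATAAA in 1.75% of the bright (1 window), 2.94% of the dim (1 window) and 13.6% of all. The median number of CpG dinucleotides per window was 19 in bright genes, 13.5 in dim genes and 7 in all windows. A match describes these letters only.

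The arrays of all 8 cultures had median intensities between 13.3 and 13.9 on the linear scale. Of the defining markers of dendritic cells, 10 of 10 measured genes lay above the intensity filter used below, among them Itgax (CD11c), Ccr7, Irf4, Zbtb46 and Flt3. All 7 macrophage markers measured lay above it too, among them Csf1r and Adgre1, as did all 4 monocyte markers measured. Of 9 mast cell markers only Cpa3 and Gata2 did, and of 5 T and NK cell markers 0. In log2 intensity, the macrophage markers averaged between 7.16 and 7.73 over the SCF arrays and between 7.29 and 7.73 over the medium arrays.

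A probe set was tested only where its mean log2 intensity over the 8 arrays reached 4.05, the median over all probe sets with a symbol, since the files give no detection call. Of the 89 genes 52 passed (58.4%), against 51.2% of all genes. The lowest to pass were Mgat5b at 4.19 and B3galt6 at 4.30, and the highest left out were B4galnt2 at 4.00 and B3gnt7 at 3.99. A4galt itself lay near this limit, with a mean of 4.36. The 37 genes below it were Galnt5, Galnt13, Galnt14, Galnt15, Galnt16, Galnt17 and Galnt18, then Gcnt3, then Mgat3, Mgat4c, Mgat4d, Mgat4e and Mgat4f, and B3gnt6, B3gnt7 and B3gnt9. Also below it were B3galt1, B3galt2, B3galt5, B4galt2, B4galnt2, B4galnt3 and B4galnt4. The sialyltransferase genes below it were St3gal6, St6gal2, St6galnac2, St6galnac3, St6galnac5, St8sia2, St8sia3 and St8sia5. The fucosyltransferase symbols below it were Fut1, Fut2, Fut4-ps1, Fut7, Fut9 and Fut10. Fut7, the enzyme that completes sialyl Lewis x for selectin binding, was thus among the dim genes. Without the filter, the SCF minus medium differences of the 37 lay between -0.10 (St3gal6) and 0.10 (Galnt5) on the log2 scale.

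The comparison of SCF with medium asked how far 6 hours of SCF altered these genes in hypoxic dendritic cells. The lowest SCF minus medium differences were those of Galnt3 and A4galt, the genes that led to the choice, at 0.797-fold for Galnt3 and 0.827-fold for A4galt. St3gal5 followed at 0.866-fold and B3gnt8 at 0.911-fold. The other 48 lay between 0.924-fold (B4galt7) and 1.07-fold (B4galt3). None of the 52 reached an adjusted p of 0.05 in the limma fit blocked on experiment, as was true of all 12668 probe sets tested (0.0% called, smallest adjusted p = 0.945). At an unadjusted p under 0.05 there were 4 (Galnt3, A4galt, St3gal5 and B3gnt8), all lower with SCF, or 7.69%, where 4.21% of all probe sets stood past it (2.26% lower and 1.95% higher with SCF). Without A4galt and Galnt3 it was 2 of 50 (4.00%). The contrast helped to choose the families, so nothing is read from these counts.

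The whole group was close to 0. Of the 52 genes 31 had a fitted difference below 0 and 21 above, against 49.5% below among all probe sets tested. Their median log2 difference was -0.014, beside 0.00077 over all probe sets, and it turned to 0.010 without experiment BC. Without A4galt and Galnt3, which were chosen for this difference, 29 of 50 lay below 0 and the median was -0.0084. In single experiments the median was -0.05 (BC), -0.03 (D2), -0.015 (E) and 0.0064 (I). For 44 of the 52 the fitted difference was under 0.1 in size. The 95% intervals, not adjusted for the number of genes, lay between 0.710-fold and 1.20-fold for all 52, and so within 1.5-fold in either direction, as they did for 99.7% of all probe sets. The SCF and medium arrays overlapped for every one of the 52, where 0.971% of all probe sets had groups that did not. All 4 pairs shared a sign for 9 genes (17.3%, against 12.9% of all probe sets), or for 7 of 50 without A4galt and Galnt3. Of these, Galnt3, A4galt, B3gnt8, Gcnt1, B4galt4, Galnt1 and Galnt11 were lower with SCF and B4galt3 and Galnt12 higher.

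**Figure D1:**
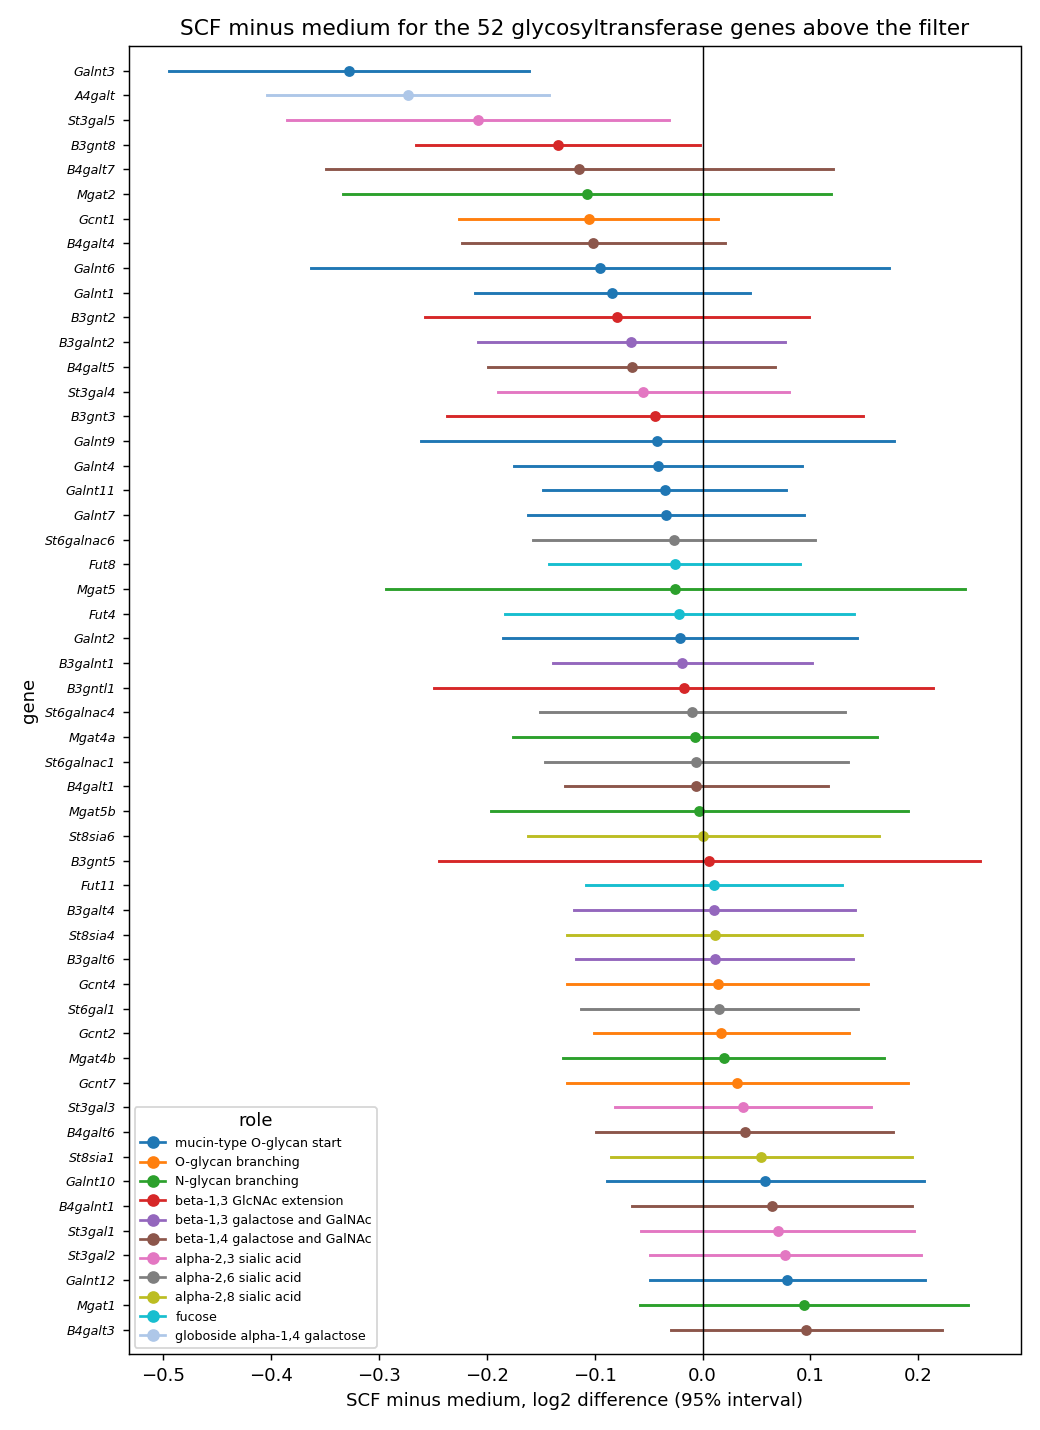
SCF minus medium log2 difference (horizontal axis) for the 52 glycosyltransferase genes above the intensity filter, one row each, coloured by role; points are limma estimates from 4 pairs and bars their 95% intervals. Galnt3 and A4galt stand lowest, at -0.33 and -0.27, and of the other 50 bars all but those of St3gal5 and B3gnt8 cross 0.

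A4galt encodes the enzyme that adds alpha-linked galactose to lactosylceramide to make the globoside Gb3, also known as CD77. Its log2 intensity was 4.10 (BC), 4.10 (D2), 4.55 (E) and 4.15 (I) with SCF, against 4.48 (BC), 4.28 (D2), 4.85 (E) and 4.37 (I) in medium. The SCF array was the lower of the pair in each experiment, but that of E lay above the medium arrays of the other 3, so the groups overlapped. The means were 4.23 ± 0.22 with SCF and 4.50 ± 0.25 in medium (SD, n = 4 each), a log2 difference of -0.27 (SE 0.06, 95% interval -0.40 to -0.14). Leaving out 1 experiment kept it between -0.30 and -0.24. Of its SCF values 3 lay within 0.1 of the intensity filter.

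Galnt3 encodes a transferase that starts O-glycans, known above all for the glycosylation of the phosphate hormone FGF23. It measured 5.77 (BC), 6.49 (D2), 6.40 (E) and 5.91 (I) with SCF, against 6.29 (BC), 6.86 (D2), 6.69 (E) and 6.05 (I) in medium. The difference ran from -0.53 in BC through -0.37 in D2 and -0.28 in E to -0.13 in I. D2 and E were high and BC and I low in either condition. The means were 6.14 ± 0.36 with SCF and 6.47 ± 0.37 in medium (SD, n = 4 each), a log2 difference of -0.33 (SE 0.07, 95% interval -0.49 to -0.16), and between -0.39 and -0.26 with 1 experiment left out. BC held the widest pair for Galnt3, and likewise for A4galt, St3gal5, B3gnt8, B4galt7 and Gcnt1. Also among the 8 lowest differences, Mgat2 and B4galt4 had their widest pair in D2. Mgat2 differed by -0.47 in D2 and -0.13 in BC, and B4galt4 by -0.18 in D2 and -0.11 in BC. The average SCF minus medium difference of the 7 macrophage markers was -0.23 (BC), 0.06 (D2), -0.0043 (E) and -0.03 (I), and that of the 4 monocyte markers -0.24 (BC), 0.10 (D2), -0.15 (E) and 0.00098 (I). Both marker averages were thus lowest in BC. The progenitor markers Kit and Cd34 averaged -0.08 (BC), -0.12 (D2), -0.10 (E) and -0.04 (I), below 0 in each experiment as A4galt and Galnt3 were. No other marker list was below 0 in every experiment. This average rests on 2 genes, and the dimmer had a mean of 4.06, at the intensity filter. Of the 10 dendritic cell markers 9 had a fitted difference above 0, with a median of 0.04. The part of these cells in the values of the glycosyltransferase genes named here was not tested. In such bulk cultures fewer cells of a type cannot be told apart from less RNA per cell.

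**Figure D2:**
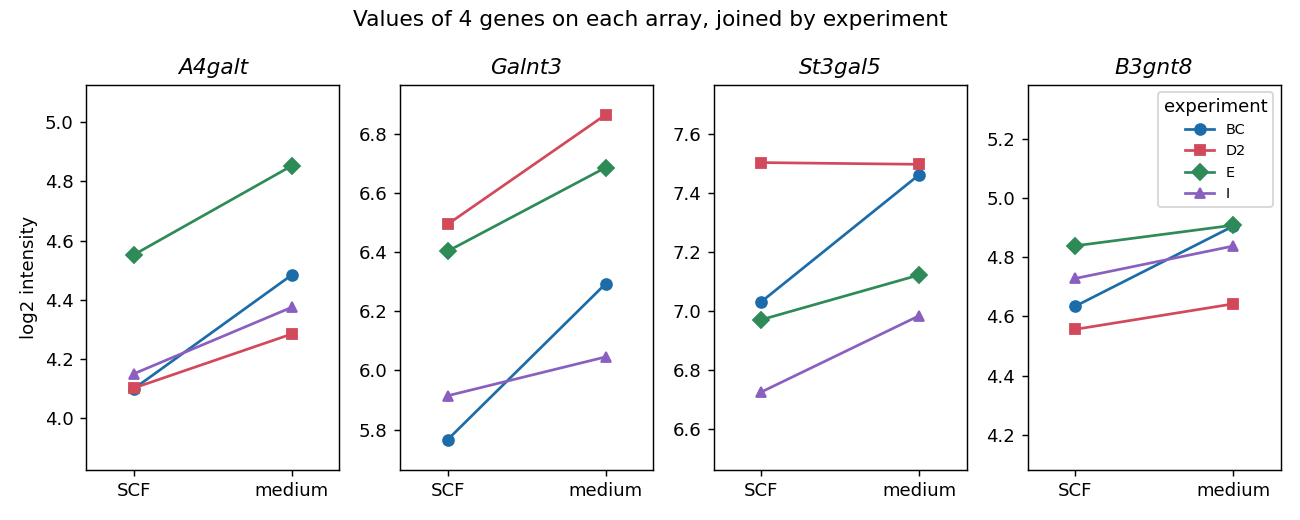
Log2 intensity of 4 genes on each array, SCF left and medium right, with lines that join the 2 arrays of an experiment (all panels span an equal range). For A4galt, Galnt3 and B3gnt8 the SCF array is the lower in 4 of 4 experiments, while for St3gal5 experiment D2 is level (7.50 in both).

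Of the genes that start mucin-type O-glycans, 10 of 17 were bright enough, and 8 of the 10 had a difference below 0 with a median of -0.04. Beside Galnt3 these ranged from -0.10 (Galnt6) to 0.08 (Galnt12). Galnt6 differed by -0.54 in BC but by 0.24 in D2, which places it among the least steady. Galnt9 was also lowest in BC, at -0.42 against 0.05 to 0.13 in the other 3 experiments. Galnt1 and Galnt2, the broadly active members of the family, stood at -0.08 and -0.02. The second probe set of Galnt1, as bright as the first (7.45 each), gave 0.0060, so the sign for this gene depended on the probe set. Galnt4, Galnt7 and Galnt10, which prefer peptides that already carry a sugar, stood at -0.04, -0.03 and 0.06, and Galnt10 moved between 0.011 without I and 0.10 without E. Galnt11, which can glycosylate Notch receptors, was at -0.04 with 4 of 4 experiments below 0 by 0.02 to 0.04. Galnt12 was the member above 0 in 4 of 4, at 0.08, or 0.04 without E. Its values were 6.73 (BC), 6.54 (D2), 6.44 (E) and 6.61 (I) with SCF, against 6.65 (BC), 6.51 (D2), 6.24 (E) and 6.60 (I) in medium, so the groups overlapped widely.

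Genes that branch O-glycans counted 5, of which 4 were tested and 1 of these lay below 0. Gcnt1, the leukocyte enzyme that builds the core branch on which selectin ligands are made, measured 6.42 (BC), 6.70 (D2), 6.72 (E) and 6.42 (I) with SCF, against 6.60 (BC), 6.77 (D2), 6.77 (E) and 6.54 (I) in medium. Every pair pointed down, by 0.05 to 0.18, while the experiments differed more than the pairs. Its log2 difference was -0.11 (SE 0.05). Gcnt2, which branches linear lactosamine chains, Gcnt4 and Gcnt7 lay between 0.014 and 0.03.

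Among N-glycan branching genes 6 of 11 were tested, 4 below 0 and 2 above. Mgat1 and Mgat2 place the first GlcNAc residues on the trimmed mannose core. Mgat1 stood at 0.09 (SE 0.06), and at 0.04 without D2 and 0.14 without BC. Mgat2 stood at -0.11 (SE 0.10), with a single medium array apart, that of D2 at 8.40, where the other medium arrays lay between 7.71 and 7.97 and the SCF arrays between 7.78 and 7.98. Without D2 its difference was 0.015. Mgat4a and Mgat4b, which add a further branch, were at -0.0071 and 0.02. Mgat5, whose branch binds galectins well, was at -0.03 with an SE of 0.11, the widest of the 52, as its difference was 0.39 in D2 and -0.29 in E. Mgat5b, a related enzyme of brain, was at -0.0031.

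Of the B3gnt genes, which extend chains with GlcNAc, 5 of 8 were tested and 4 lay below 0. B3gnt8, which extends lactosamine on branched N-glycans, measured 4.63 (BC), 4.56 (D2), 4.84 (E) and 4.73 (I) with SCF, against 4.90 (BC), 4.64 (D2), 4.91 (E) and 4.84 (I) in medium. The pairs differed by -0.27 in BC and by -0.11 to -0.07 in the others. The fitted difference was -0.13 (SE 0.06, 95% interval -0.27 to -0.0021), or -0.09 without BC. B3gnt2, the main polylactosamine synthase, was at -0.08, B3gnt3 at -0.04 and B3gntl1 at -0.02. B3gnt5, which starts the lacto series of glycolipids, averaged 0.0064, but its pairs went apart, with 0.36 in BC and -0.34 in D2.

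Galactose and GalNAc transferases of the B3gal and B4gal families gave 11 tested genes of 18, with 6 below 0 and 5 above. B4galt1, the main lactosamine galactosyltransferase, differed by -0.0057 (95% interval -0.13 to 0.12). B4galt3, of the same family, was above 0 in 4 of 4 experiments. It measured 6.21 (BC), 6.22 (D2), 6.34 (E) and 6.32 (I) with SCF, against 6.21 (BC), 6.08 (D2), 6.27 (E) and 6.14 (I) in medium, a log2 difference of 0.10 (SE 0.05). B4galt4 was below 0 in 4 of 4, at -0.10 (SE 0.05). B4galt7, which adds the first galactose of the linker that holds glycosaminoglycans on proteins, stood at -0.11 (SE 0.10), and its BC pair differed by -0.46. Without BC its value was -0.00012, without D2 -0.20. The second, dimmer probe set of B4galt7 (mean 4.76) gave -0.04. B3galt6, which adds the next galactose of that linker, was at 0.011. B3galnt2, which glycosylates dystroglycan, was at -0.07.

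Sialyltransferase genes numbered 20, and 12 were tested, 5 below 0 and 7 above. St3gal5, the GM3 synthase, measured 7.03 (BC), 7.50 (D2), 6.97 (E) and 6.73 (I) with SCF, against 7.46 (BC), 7.50 (D2), 7.12 (E) and 6.98 (I) in medium. It was lower with SCF in 3 experiments and level in D2, and the groups overlapped. Its log2 difference was -0.21 (SE 0.08, 95% interval -0.39 to -0.03), or -0.13 without BC. St3gal1 and St3gal2, which cap the core of O-glycans, stood at 0.07 and 0.08, with 3 of 4 experiments above 0 for each. St3gal1 was at 0.04 without D2 and St3gal2 at 0.05 without E. St3gal3 and St3gal4, which sialylate lactosamine ends, were at 0.04 and -0.055. St6gal1, which makes the alpha-linked cap bound by CD22, was at 0.015. St6galnac1, St6galnac4 and St6galnac6 lay between -0.03 and -0.0058. Polysialyltransferase gene St8sia4 differed by 0.011 (95% interval -0.13 to 0.15). St8sia1, the GD3 synthase, was at 0.05, or 0.0092 without BC, and St8sia6 at 0.00072.

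Fucosyltransferase genes gave 3 tested of 9. Fut8, which adds the fucose of the N-glycan core, was at -0.03, Fut4, a Lewis x enzyme of leukocytes, at -0.02, and Fut11 at 0.011. Each interval included 0.

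The enzymes of glycolipids can be set side by side, since lactosylceramide is the branch point for A4galt, St3gal5 and B3gnt5. B4galt5 and B4galt6, which make it, stood at -0.07 and 0.04, and Ugcg, which makes the glucosylceramide before it, at -0.13 (SE 0.08). Of the enzymes that draw on lactosylceramide, A4galt stood at -0.27, St3gal5 at -0.21 and B3gnt5 at 0.0064. The genes named here from further down the ganglioside and globoside routes lay between -0.02 and 0.06. B4galnt1, the GM2 synthase, was at 0.06, or 0.11 without D2, B3galt4, the GM1 synthase, at 0.011, and B3galnt1, which turns Gb3 into the next globoside, at -0.02. These were put together after the values were known.

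**Figure D3:**
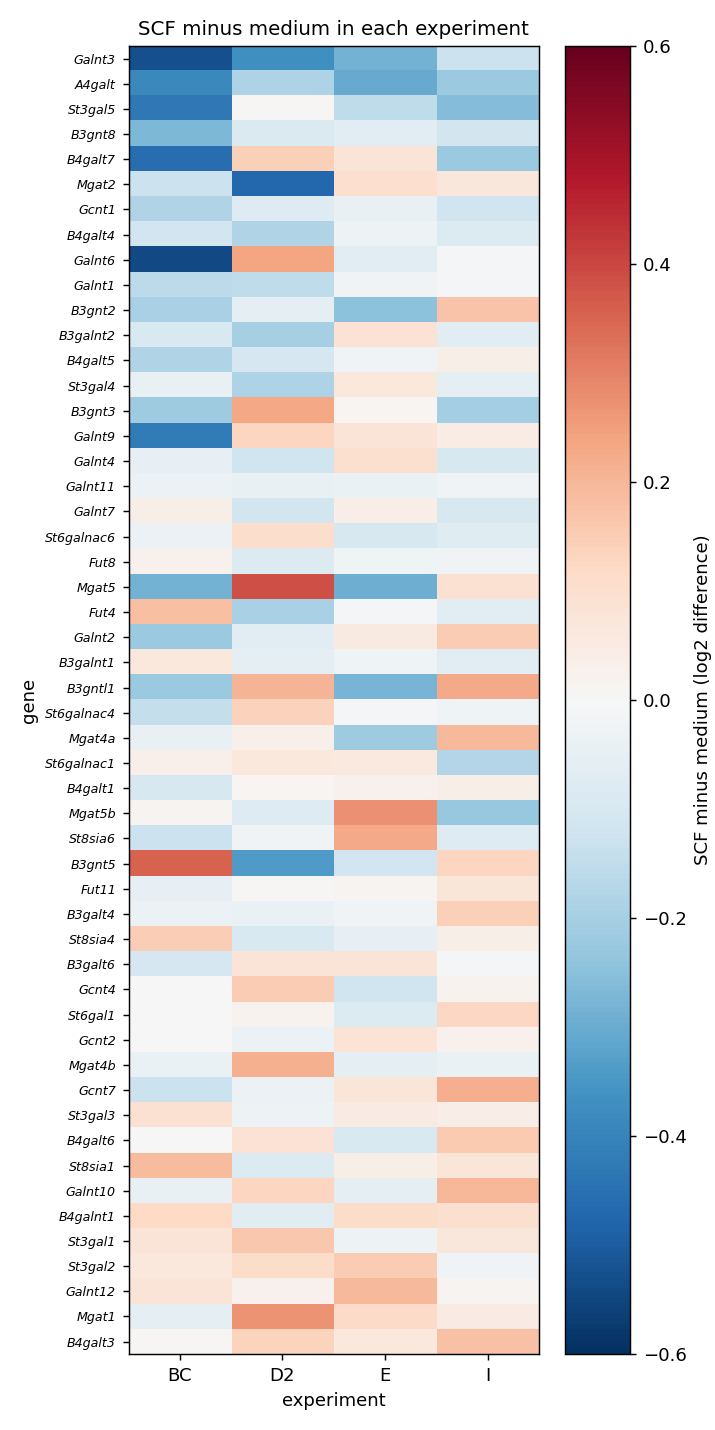
SCF minus medium log2 difference of the 52 genes (rows, ordered by the fitted difference) in experiments BC, D2, E and I (columns); blue is lower and red higher with SCF. Rows blue in every column are Galnt3, A4galt, B3gnt8, Gcnt1, B4galt4, Galnt1 and Galnt11, and BC and D2 differ in sign in Galnt6, Mgat5 and B3gnt5.

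The difference between the 4 experiments asked which of these genes varied between the cell preparations named BC, D2, E and I. It was tested by limma's F over experiment with treatment in the fit. Only 2 of the 52 passed an adjusted p of 0.05 (3.85%, against 3.35% of all probe sets), Galnt3 (adjusted p = 0.028) and A4galt (adjusted p = 0.043). The rate was near that of the arrays as a whole, and the call for these genes is not independent of their choice, because both tests divide by the same residual spread. At an unadjusted p under 0.05 there were 17 of 52 (32.7%), against 24.2% of all probe sets. The count of calls varied with the processing. It was 0 without D2 or without E, where 0.868% and 0.300% of all probe sets passed. It was 8 with an intensity trend in the variance, where 12.1% of all probe sets passed.

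The spread of experiment means was largest in B3gnt5, at 0.81 log2 units or 1.75-fold between its highest and lowest experiment. Its mean of both arrays was 7.17 (BC), 6.50 (D2), 6.37 (E) and 6.58 (I), so BC stood apart from the other 3 (adjusted p = 0.073). Galnt3 spanned 0.70, with 6.03 (BC), 6.68 (D2), 6.54 (E) and 5.98 (I). St3gal5 spanned 0.64, with 7.25 (BC), 7.50 (D2), 7.05 (E) and 6.86 (I) (adjusted p = 0.058). A4galt spanned 0.51, with 4.29 (BC), 4.19 (D2), 4.70 (E) and 4.26 (I). B3gnt5 and St3gal5 were chosen here after their values were seen. At the other end, B3galnt2, St3gal4 and Galnt7 had experiment means within 0.07 of each other.

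Across the 52 genes the highest experiment was BC for 19, E for 17, I for 9 and D2 for 7, and the lowest was D2 for 21, I for 14, BC for 9 and E for 8. Among all probe sets BC was also the most frequent highest (4019 of 12668) and D2 the most frequent lowest (4076). There E and D2 were highest about equally often (3088 and 3068), unlike the 17 and 7 of the 52 genes. The median spread was 0.25 in the 52 genes and 0.20 in all probe sets. Experiment E, where A4galt was highest, also had the highest average of macrophage markers, at 7.73 against 7.27 in BC, 7.41 in D2 and 7.27 in I, and of monocyte markers, at 6.70 against 6.06 to 6.37. Their part in the A4galt level was not tested.

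**Figure D4:**
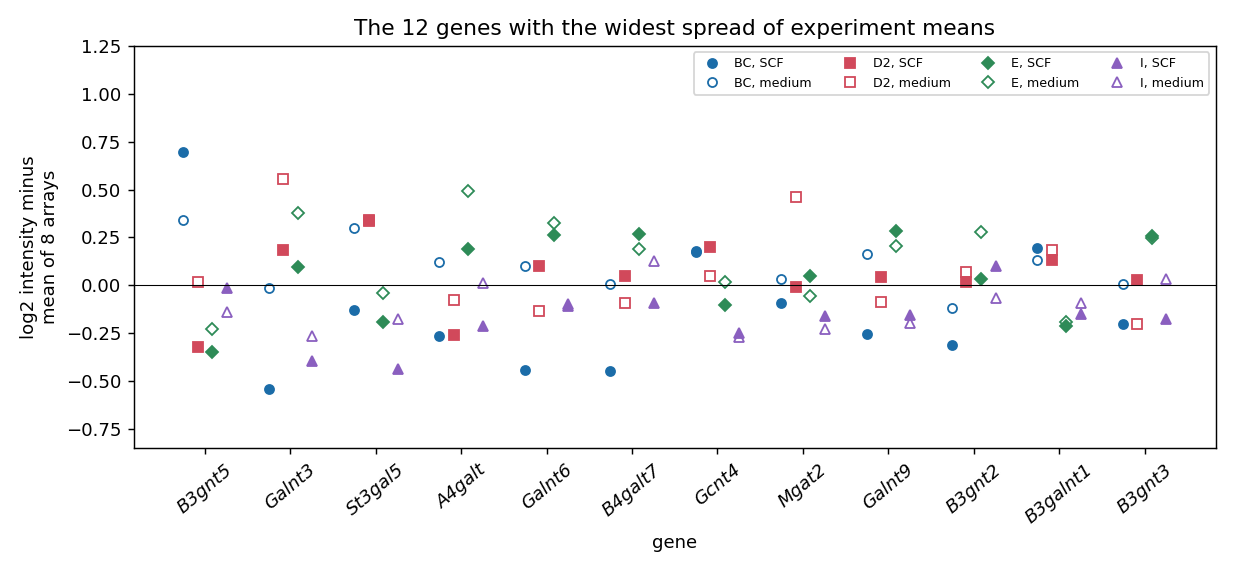
Log2 intensity minus the mean of the 8 arrays (vertical axis) for the 12 genes with the widest spread of experiment means, chosen for that spread; filled symbols are SCF arrays, open symbols medium arrays, and colours and shapes the 4 experiments. B3gnt5 is highest in BC, Galnt3 and St3gal5 in D2, and A4galt in E, on the SCF array and on the medium array alike.

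The other genes of the pathway were compared with SCF against medium in 7 lists, from which 128 genes were tested and 0 reached an adjusted p of 0.05 by limma. At an unadjusted p under 0.05 there were 7, 6 lower and 1 higher with SCF. Nucleotide sugar synthesis had 3 of its 24 tested genes there, all lower, where 4.21% of all probe sets stood past the threshold and 2.26% did so lower with SCF. These were Pgm3, an enzyme of UDP-GlcNAc synthesis, at -0.24 (SE 0.08), Cmas, which activates sialic acid, at -0.20 (SE 0.07), and Ugp2, which makes UDP-glucose, at -0.14 (SE 0.06). Pgm3 and Cmas were lower in 3 of 4 experiments and level in I. Of this list 13 genes lay below 0 and 11 above.

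Nucleotide sugar transporters had 0 of 16, with 8 on each side of 0. Slc35a5 was at -0.10, Slc35a3, the UDP-GlcNAc carrier, at -0.11 and Slc35b2, the carrier of the sulfate donor, at 0.11. Golgi glycan enzymes outside the symbol rule had 1 of 21, Csgalnact2 of chondroitin sulfate synthesis at -0.15 (SE 0.06). Next in that list came Xylt1, which starts glycosaminoglycan linkers, at -0.13 and the mannosidase gene Man1a2 at -0.16. Their list had 13 genes below 0 and 8 above, and C1galt1, which makes the core of O-glycans after the Galnt step, was at -0.06.

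Sulfotransferases had 0 of 13, with Chst7 at 0.13, Gal3st3 at 0.07 and Hs2st1 at -0.10. Genes of Golgi organisation and enzyme retention had 0 of 20, with Golga5 at -0.14, Golph3, which holds glycosyltransferases in the Golgi, at -0.10 and the Golgi calcium and manganese pump gene Atp2c1 at -0.10. Lysosomal glycan degradation had 2 of 15. Fuca2, a fucosidase, was at -0.21 (SE 0.07) and Neu3, a sialidase of gangliosides, at 0.17 (SE 0.06), each with the same sign in 4 of 4 experiments, and the activator gene Gm2a was at -0.08. Lectins had 1 of 19, the galectin gene Lgals8 at -0.14 (SE 0.06), followed by the siglec gene Cd33 at -0.14 and the cargo lectin gene Lman1 at -0.10. The share of these 128 genes past the unadjusted threshold was 5.47%, beside 4.21% of all probe sets.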

How the data were processed

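RNA of 8 cultures was read on 1-colour Affymetrix arrays. The authors deposited an intensity for each probe set on each array. The submitters' processing notes name RMA; its version and filters are not given in the sources read. By their range these deposited intensities are linear, so log2 was taken, with no pseudocount and no further normalization. Names came from the platform annotation (23521 of 41345 probe sets had 1 symbol), and 12668 probe sets with a symbol and a mean log2 intensity of at least 4.05 were tested. The SCF contrast was fitted in limma 3.58.1 (lmFit, eBayes; R 4.3.3), two-sided, with experiment as a block, since the series' design text says that the cells of each experiment were prepared together. Same-experiment arrays correlated at 0.36 to 0.46 after removal of group means. P-values were adjusted by Benjamini-Hochberg over all tested probe sets. Precision is limited by having 4 arrays in each group, and no 2 arrays were identical. The fit was tested on simulated data.

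The genes, lists and tests were chosen with earlier results of these data known. Named were A4galt and Galnt3, the 8 lowest and 8 highest SCF minus medium differences, genes past the F test, and up to 3 genes per pathway list with the smallest p; the other genes stand by role. Differences between experiments were tested by limma's F in the same fit. Alternatives changed the intensity filter, the block, the variance trend, the scaling and the choice of probe set, and left out each experiment in turn.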

Additional observations from a re-analysis of the deposited data

Results flagged for a closer look

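Among the 52 tested genes, each group of 4 arrays was searched for a single array far from the other 3, by Dixon's test at the 95% level. Of 104 such groups 2 held one, where chance gives about 1 in 20. A4galt with SCF had its highest value in experiment E at 4.55, with the other 3 SCF arrays between 4.10 and 4.15. Its medium array of E was also the highest of its group. Mgat4a, a gene of N-glycan branching, had its highest medium value in experiment E at 7.48, with the other 3 medium arrays between 7.13 and 7.19.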

How the results depend on the processing

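The count of glycosyltransferase genes called between SCF and medium was 0 under all 12 alternatives, the fit with no replicate block among them. The count of the other pathway genes was also 0. Over all probe sets tested it was likewise 0 under each alternative, so this is not particular to the group. The count called between experiments was 2 (3.35% of all probe sets called) and moved to 1 with no intensity filter (0.766%), 7 with a stricter filter (29 genes tested, 22.0%), 8 with an intensity trend (12.1%), 4 with array medians equalized (3.84%), 1 after a repeated quantile normalization (3.17%) and 4 with the mean of a gene's probe sets (4.28%). Leaving out 1 experiment gave 0 to 1, with fewer arrays in the fit. The cause of the other shifts was not tested. The median SCF minus medium difference was -0.014, lay between -0.020 and 0.010 with 1 experiment left out, and was -0.033 with array medians equalized and -0.027 after repeated quantile normalization. A change of filter, block or variance trend cannot move a fitted difference in this balanced design. A4galt and Galnt3 had no second probe set, and leaving out 1 of 4 pairs cannot move a difference by its spread between pairs. Only the rescalings could have done so for these genes. A4galt stood at -0.27 in the main fit and Galnt3 at -0.33. Equalized array medians gave -0.29 and -0.35, and repeated quantile normalization -0.29 and -0.33. A4galt was not tested under the stricter filter. Equalized medians shifted the median of all probe sets to -0.018 and the repeated quantile normalization to -0.011. The 8 lowest and 8 highest SCF minus medium differences gave 16 genes. Among them the omission of BC moved 6 by over 1.5 times in either direction, of D2 7, of E 5 and of I 2. Mgat2 turned when D2 was omitted. Signal over background is unknown here, which limits what can be said of dim genes such as A4galt.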
